A study of Homo sapiens with 6 samples.

Results

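The imprinted miRNA cluster of human chromosome 14q32 was followed in exosomes of H9 embryonic stem cells. Its members were all mature miRNAs on the array whose name carries 1 of 41 numbers assigned to the cluster, with any letter or arm suffix. This gave 87 of the 2549 human miRNAs on the array. H9 is an established human embryonic stem cell line, and exosomes are vesicles shed by cells into the medium around them. Cells were grown without feeder cells on Matrigel in TeSR-E8 medium, vesicles were precipitated from that medium with ExoQuick-TC, and their RNA was hybridised to Agilent SurePrint G3 miRNA arrays in 1 colour (Cy3). The study told colonies apart by their shape and by staining for R-10G, an epitope of pluripotent cells, and vimentin, a mesenchymal protein. Vimentin marked the looser colonies, named substate 2, and was nearly missing from the compact, typical ones, named substate 1. Of the 2 forms, substate 1 had the brighter R-10G stain. Each of 3 experiments had 1 array per substate.

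Substate 1 was at passage 41, 46 and 50 in experiments 1, 2 and 3, and substate 2 was at passage 52, 61 and 65. Substate 2 was thus 11, 15 and 15 passages later, and substate and passage cannot be told apart. The RNA labelled for each array of experiments 1, 2 and 3 was 72.4, 100 and 51.4 ng, equal for both substates. All 6 arrays came from 1 cell line. Nothing in the sources used here says that the experiments started from separate cultures, so that p-values measure the spread between these arrays.

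The 14q32 domain is imprinted: its noncoding transcripts, among them MEG3, MEG8 and the miRNA precursors, come from the maternally inherited chromosome, and its protein-coding genes DLK1, RTL1 and DIO3 from the paternal one. The miRNAs lie in a group near MEG3 and antisense to RTL1 and in a larger group downstream of it, and each hairpin precursor can give a mature miRNA from its 5p and from its 3p arm. The domain is active in embryonic tissues and brain, and its transcripts are known to be silenced in some cultured pluripotent stem cell lines.

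Of the 87 members, 6 were detected on at least 1 array. Their mature sequences are shown because they carry every detected signal of the cluster; they are from RefSeq (GRCh38.p14), written 5′ to 3′ with the seed (bases 2 to 8, the stretch that pairs with targets) in capitals.
miR-370-3p: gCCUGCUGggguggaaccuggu
miR-494-3p: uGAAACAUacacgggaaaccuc
miR-654-5p: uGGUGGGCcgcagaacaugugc
miR-1185-1-3p: aUAUACAGggggagacucuuau
miR-1185-2-3p: aUAUACAGggggagacucucau
miR-134-5p: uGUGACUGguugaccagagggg

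All 6 lie on the plus strand, given here in chromosomal order. miR-370-3p is at chr14:100911186-100911207, where RefSeq annotates MIR370 and the noncoding gene MEG8. miR-494-3p is at chr14:101029681-101029702, where RefSeq annotates MIR494 and LOC124903407, and miR-654-5p at chr14:101040234-101040255 in MIR654. The miR-1185 copies are at chr14:101043029-101043050 in MIR1185-1 and chr14:101044250-101044271 in MIR1185-2, and miR-134-5p is at chr14:101054694-101054715 in MIR134. In all, 86 of the 87 members were matched to a RefSeq sequence (miR-668-3p was not), 85 of them on chromosome 14. The other, miR-544b, has its RefSeq position on chromosome 3, so that its name and not its place put it among the members; it was silent.

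A miRNA was marked detected where at least 1 probe had a background-subtracted signal above 3 times its error, and its total signal is the sum over those probes alone. Totals of one miRNA can therefore rest on different numbers of probes: miR-1185-1-3p had 2 on the arrays of experiments 1 and 2 and 1 on those of experiment 3, and miR-654-5p had 2 of 4 wherever it was detected in experiments 1 and 2 and 1 in experiment 3. The 6 members detected on at least 1 array were 6.9% of the cluster, against 24.7% of all human miRNAs (629 of 2549). On at least 3 arrays 5 members were detected (18.6% of all human miRNAs were), and on all 6 arrays 2 members, miR-494-3p and miR-1185-1-3p (11.3% of all). The remaining 81 members, 93.1%, were silent, that is, undetected on all 6 arrays. The cluster was thus mostly silent in these exosomes.

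Other miRNA clusters known to be active in human embryonic stem cells were measured on the same arrays. Of C19MC, a primate-specific imprinted cluster of chromosome 19, 28 of the 48 miRNAs listed here (58.3%) were detected on at least 1 array. That list is shorter than the number of mature miRNAs the study gives for C19MC. Of the miRNAs named miR-302 or miR-367, which are characteristic of pluripotent cells, 8 of 12 were detected, each of them on all 6 arrays. This list was taken by name and any letter suffix, not by position. These shares are given side by side, and their difference from the 14q32 cluster was not tested.

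By their numbers, 14 members were assigned to the MEG3 and RTL1 antisense side and the other 73 to the miR-379 to miR-656 group, which by name alone takes in miR-544b and the unmatched miR-668-3p. On the MEG3 side 1 member was detected, miR-370-3p, and 13 were silent, among them both arms of miR-431, miR-432, miR-433, miR-493 and miR-337. In the other group 5 were detected and 68 silent. In the order of the 85 members on chromosome 14, the detected ones stood at places 14, 30, 38, 45, 46 and 62, with the miR-1185 copies at 45 and 46. Silent miR-1185-5p, which both hairpins encode, has 1 place in this order, and its second copy lies between them. A further 7 mature miRNAs of the domain outside the naming rule (miR-127, miR-136, miR-1193, miR-1197 and miR-2392) included 1 that was detected, miR-2392, on all 6 arrays.

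**Figure D1:**
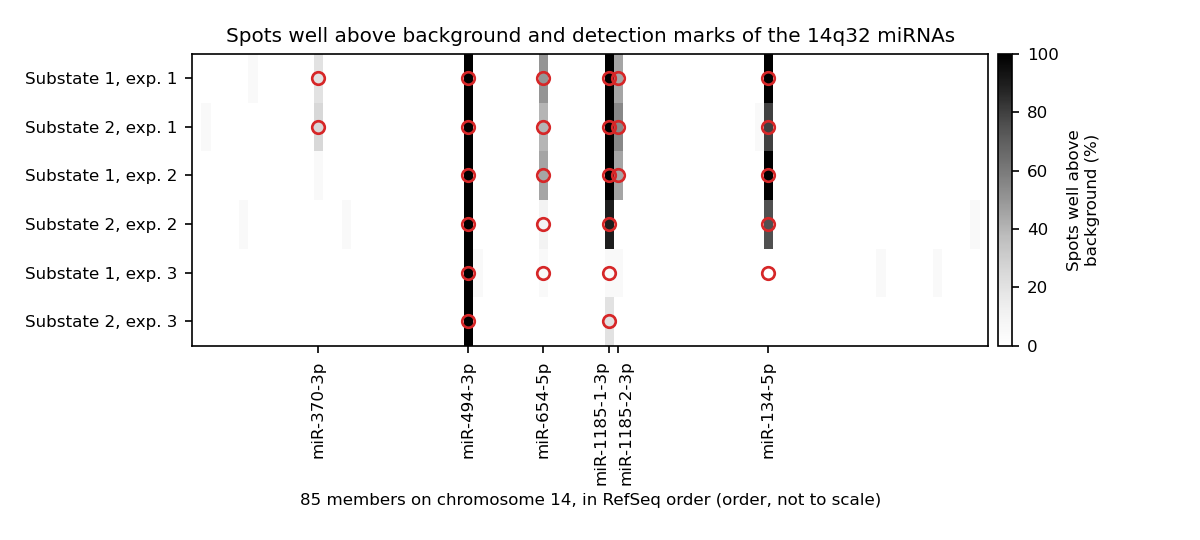
Each column is 1 of the 85 members on chromosome 14 in RefSeq order and each line is 1 array; the grey scale gives the percentage of its 20 spots marked well above background, and a red circle marks a detected miRNA. Dark columns stand at miR-494-3p, miR-1185-1-3p and miR-134-5p, and detection thins to 2 members on the array of substate 2 in experiment 3.

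By arm, 2 of 41 5p members and 4 of 40 3p members were detected, and 0 of 6 members named without an arm. No hairpin gave 2 detected arms: the partner of each detected arm was silent. These silent partners are shown beside the arms they came with, seed in capitals.
miR-370-5p: cAGGUCACgucucugcaguuac
miR-494-5p: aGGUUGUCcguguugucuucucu
miR-654-3p: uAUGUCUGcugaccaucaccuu
miR-1185-5p: aGAGGAUAcccuuuguauguu
miR-134-3p: cCUGUGGGccaccuagucaccaa

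The seeds grouped few of the detected members. miR-1185-1-3p and miR-1185-2-3p share their seed and differ at 1 of 22 positions (U20C, first against second, counted from 1 at the 5′ end), so that each probe set could bind RNA of the other copy and their signals are uncertain as separate measures. miR-654-5p shares its seed with miR-541-3p, a member with a different remainder that was silent.
miR-541-3p: uGGUGGGCacagaaucuggacu

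Outside the cluster, miR-134-5p shares its seed with miR-3118, which was undetected. No other human miRNA on the array with a RefSeq sequence had the seed of miR-370-3p or miR-494-3p. Among all members 10 seeds occurred more than once, and 8 of these groups held silent members alone, such as miR-300 with miR-381-3p and miR-376a-3p with miR-376b-3p.

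A run of G bases was seen in the printed sequences, and the motif GGG was then counted on the mature strand in every miRNA with a sequence. It was present in 6 of the 6 detected members and in 13 of 80 silent members (16.2%). Over all 2248 human miRNAs with a sequence 32.7% held it. The longer GGGG, each of which also counts as a GGG, was in 4 of the 6 detected members, in 0 of the 80 silent ones and in 12% of all. Read the other way, 6 of 19 members with GGG were detected (31.6%) and 0 of 67 without it, against 37.9% and 17.3% of all human miRNAs. Because the motif was chosen after the sequences of the detected members were seen, these counts describe them and carry no test. The GC content of detected members had a median of 52.3% (range 40.9% to 68.2%) and that of silent members 45.5% (23.8% to 72.7%), so that the ranges overlapped.

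miR-494-3p was above background at every spot. Its total signal, in intensity units of the scanner software, was 346, 285 and 68.8 in substate 1 in experiments 1, 2 and 3, and 284, 154.3 and 62.4 in substate 2. All of its 20 spots were well above background on all 6 arrays, and none was saturated. The signal was low on both arrays of experiment 3, the one with the smallest amount of labelled RNA, and the substates overlapped. The part of the labelled amount in this signal was not tested.

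miR-1185-1-3p had a total signal of 8.33, 6.36 and 1.20 in substate 1 and of 6.95, 4.80 and 1.35 in substate 2. Of its 20 spots, 20, 20 and 1 were well above background in substate 1 and 20, 18 and 4 in substate 2. It was therefore measured clearly in experiments 1 and 2 and close to the limit in experiment 3, where 1 of its 2 probes passed 3 errors on each array.

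miR-134-5p is known from dendritic spines of neurons and, in mouse embryonic stem cells, from targeting transcripts of pluripotency factors. Its total signal was 6.39, 6.83 and 2.15 in substate 1, and 2.89 and 3.44 in experiments 1 and 2 of substate 2. In substate 1 of experiment 3 it passed narrowly, with both probes at 3.05 errors and 0 of 20 spots well above background. On the array of substate 2 in experiment 3 it was undetected, with probe signals of 2.18 and 1.95 errors, and 19 of 20 spots there were positive and significant against background, as were 54.3% of the negative control spots of that array. Within each experiment substate 2 was the lower one.

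miR-654-5p had a total signal of 4.54, 2.12 and 0.641 in substate 1 and of 1.57 and 1.14 in experiments 1 and 2 of substate 2, and was undetected in substate 2 of experiment 3. Its 4 probes disagreed. On the array of substate 1 in experiment 1 they stood at 8.33, 7.65, 1.32 and -0.0482 errors, and the latter pair of probes never reached 3 errors on any array.

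miR-1185-2-3p was detected on both arrays of experiment 1, at 3.33 in substate 1 and 2.53 in substate 2, and in substate 1 of experiment 2, at 2.66. miR-370-3p was detected on the arrays of experiment 1 alone, at 1.47 in substate 1 and 1.35 in substate 2, each time through 1 of its 2 probes, with 4 and 5 of 20 spots well above background. Neither was detected in experiment 3.

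**Figure D2:**
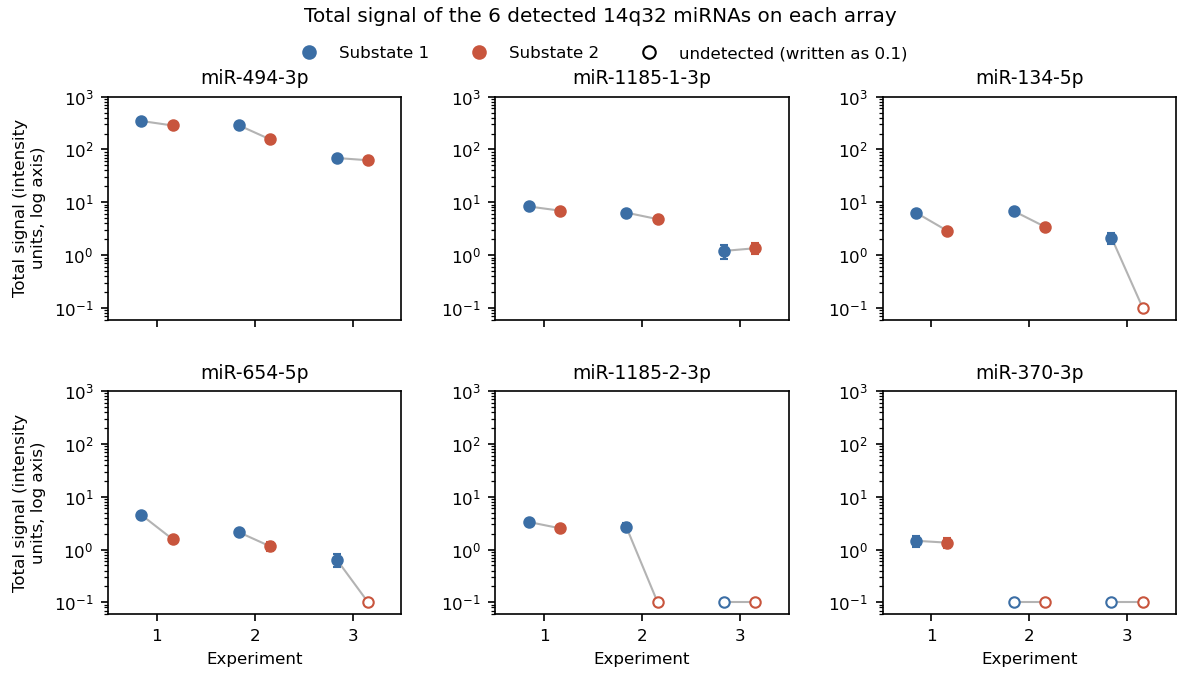
Total signal (intensity units, log axis) of each detected member by experiment, with substate 1 in blue and substate 2 in red; bars are the signal error given by the scanner software, and open circles are undetected miRNAs, which the files list at 0.1. For miR-134-5p substate 1 stands at 6.39 and substate 2 at 2.89 in experiment 1, and all 6 members were lowest or undetected in experiment 3.

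The detected members per array were 6, 5 and 4 in substate 1 and 6, 4 and 2 in substate 2. The difference was 0, -1 and -2 in experiments 1, 2 and 3, with a mean of -1 ± 1 (SD, n = 3). By a looser mark, at least 10 of 20 spots positive and significant, the members per array were 6, 6 and 10 in substate 1 and 6, 8 and 7 in substate 2, with a mean difference of -0.33 ± 2.52. Of the single negative control spots, 45.1% were also positive and significant. By a stricter mark, at least 10 of 20 spots well above background, the members per array were 4, 3 and 1 in both substates. The pattern thus depended on the mark. Of all human miRNAs, 23.3%, 18.2% and 13.0% were detected in substate 1 in experiments 1, 2 and 3, and 20.7%, 18.4% and 12.2% in substate 2, so that experiment 3 was lowest here too. Experiment 1 was on a slide of its own and was extracted with a later version of the software than experiments 2 and 3. The part of labelled amount, slide and software version in these counts was not tested.

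The silent members lay at background. Each member had 20 spots, from 2 probes for 61 members, 3 for 4 and 4 for 22. On the arrays of substate 1 the median background-subtracted signal of the 1620 silent spots was -0.192, -0.579 and -0.341 intensity units, and the median of 1000 negative control spots was 0.531, 1.66 and 3.24. In substate 2 these medians were -0.0891, -0.265 and -0.206 for silent spots and 0.574, 2.67 and 2.19 for negative controls. On all 6 arrays the silent spots thus had the lower median.

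Spots that stood out were rare among silent members and among controls. Over 6 arrays 10 of 9720 silent spots were marked well above background (0.103%), beside 11 of 6000 negative control spots (0.183%), and 23 silent spots (0.237%) were above the 99th percentile of the controls of their array. These spots were scattered: 71 of the 81 silent members had none well above background, and no silent member had more than 1 on an array. The silent probe closest to detection was 1 of miR-665, at 2.05 errors in substate 2 and 1.87 in substate 1 of experiment 1.

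By the looser mark, at least 10 of the 20 spots positive and significant on some array, 7 of the 81 silent members (8.64%) passed, beside 14.3% of the 1920 human miRNAs undetected on all arrays and 35.2% of all human miRNAs. Of single spots, 13.3% of the silent ones and 45.1% of the negative controls carried this mark, so that it did not set members apart from background. The 7 were miR-337-3p, miR-369-3p, miR-369-5p, miR-376a-2-5p, miR-376b-5p, miR-494-5p and miR-655-5p. The highest count was 15 of 20, for miR-369-3p in substate 1 of experiment 3, where it had no spot well above background. On that array and on that of substate 2, miR-369-3p had 15 and 11 such spots, against 5 and 2 in experiment 1.

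The arrays could not have shown every low signal. The limit of detection of a silent member, 3 times the error of a probe, had a median of 0.988, 0.867 and 1.00 intensity units in substate 1 and of 0.695, 0.871 and 0.864 in substate 2. As a share of the 99th percentile of the array it ranged from 0.208% in substate 1 of experiment 1 to 0.691% in substate 2 of experiment 3. A silent member was therefore not detectable at these limits, and its absence was not shown.

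**Figure D3:**
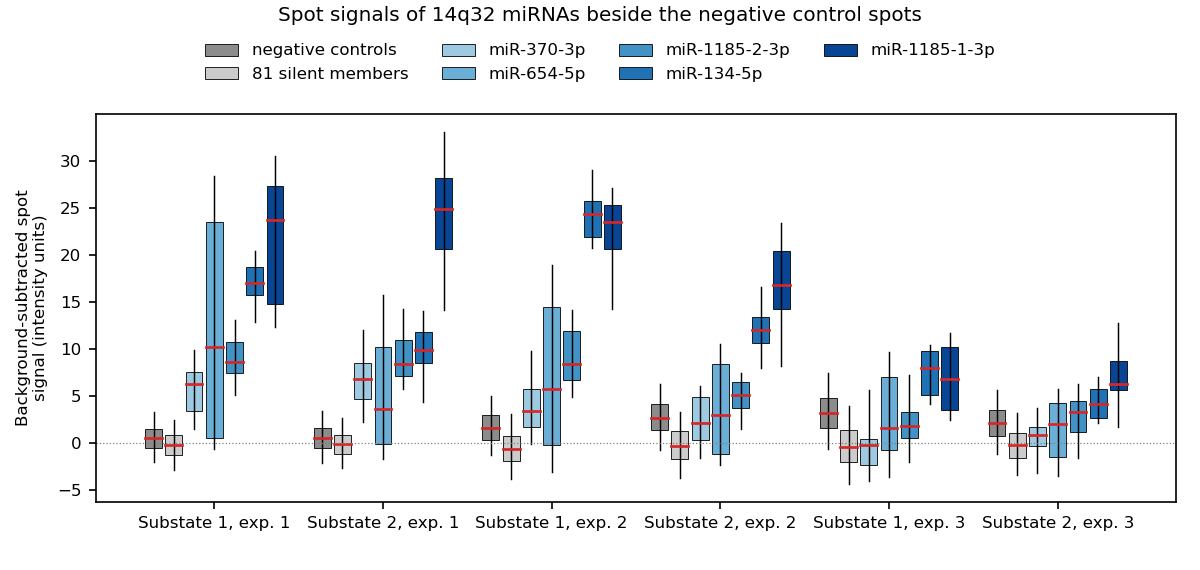
Background-subtracted signal per spot (intensity units) on each array for negative controls, the 81 silent members together and 5 detected members; boxes span the quartiles, red lines are medians and whiskers run from the 5th to the 95th percentile. miR-494-3p is off this scale and left out. Silent members lie at or below the negative controls on every array, with medians from -0.579 to -0.0891.

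The markers of other cells were read on the same arrays. Of 18 pluripotent stem cell miRNAs 12 were detected, 9 of them on all 6 arrays, with a summed total signal of 6034, 3315 and 2699 in substate 1 and 2365, 3636 and 1337 in substate 2; the brightest probe sets were those of miR-302a-3p and miR-367-3p, which is no measure of their relative amounts. Of 13 neural miRNAs 2 were detected, miR-124-3p and miR-128-3p, with a summed signal of 15.0, 10.4 and 5.27 in substate 1 and 9.39, 17.6 and 4.46 in substate 2, and both arms of miR-9 were undetected. All 6 muscle and 2 hepatic miRNAs were undetected. Of 9 blood miRNAs miR-486-5p alone was detected, with 3.62 and 3.36 in experiments 1 and 2 of substate 1 and 0.798 in experiment 1 of substate 2. Of 9 mesenchymal miRNAs miR-145-5p and miR-199a-3p were detected, with a summed signal of 1.72 and 1.06 in experiments 1 and 2 of substate 1 and 0.825 and 1.27 in substate 2, and none in experiment 3. The part of these cell types in the signals of the cluster was not tested.

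The question put to the substates was whether members of the cluster differ in exosomes between them. For this, total signals were divided by the 99th percentile of their array, which was 476, 355 and 180 in substate 1 and 269, 282 and 125 in substate 2, raised to a common floor of 0.431% of it (-7.86 on the log2 scale) and taken to log2. Of the 87 members 5 passed the filter of detection on at least 3 arrays and were tested among 474 miRNAs. In the total signal itself, miR-494-3p, miR-134-5p and miR-654-5p were lower (or, for the last 2 in experiment 3, undetected) in substate 2 in all 3 experiments, as was the 99th percentile, so that the scaled differences are smaller or of the other sign. Fewer cells that release a miRNA and less of it per cell cannot be told apart in these bulk samples.

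A call needed a 2-fold difference or more together with an adjusted p below 0.05 (limma, Benjamini-Hochberg), and no member met it: 0 of 5 higher and 0 of 5 lower in substate 2, beside 0% of all tested miRNAs in each direction. At an unadjusted p under 0.05 the count was 0 of 5, against 23% of all (109 of 474). The methods' t-test, run here on the same floored log2 values and not on the study's own, called 0 as well. The study put only miRNAs with a 2-fold difference into its test and called exosome miRNAs in both directions. That set differs from the 474 tested here, so that the counts are not comparable. No member was 2-fold apart, beside 4.85% of all tested that were at least 2-fold higher and 4.64% lower. With the deposited log2 values 3 of 5 were at least 2-fold lower (miR-134-5p, miR-654-5p and miR-1185-2-3p), beside 72 of all 474, and 0 were called. Each of these 3 was undetected on at least 1 array, and no common floor was applied to the deposited values. The 2 members detected on all 6 arrays gave 0.29 (miR-1185-1-3p) and 0.02 (miR-494-3p) there. The part of undetected values in this count was not tested. The substates overlapped for all 5, while 14.1% of all tested lay apart with substate 2 lower and 11.8% with substate 2 higher. The adjusted p-values of the 5 members in limma ran from 0.235 to 0.817, so that no difference was resolved from the spread between experiments.

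On the floored log2 values 1 of 5 members, miR-134-5p, was lower in substate 2 in all 3 experiments, beside 23.4% of all tested; 0 members were higher in all 3, beside 21.1%. Its log2 signal was -6.10 ± 0.36 in substate 1 and -6.92 ± 0.82 in substate 2 (SD, n = 3). The difference was -0.82 (SE 0.29, 95% interval -1.72 to 0.09), with an adjusted p of 0.235 in limma, and -0.32, -0.66 and -1.47 in experiments 1, 2 and 3. The value of experiment 3 rests on the floor, since miR-134-5p was undetected there in substate 2 and only narrowly detected in substate 1. With the mean of its spots in place of the total signal, the experiments gave -0.34, -0.66 and -0.29 and the difference was -0.43 (limma adjusted p 0.161). It was -1.06 without experiment 1, -0.49 without experiment 3, -1.35 with the labelled amount alone and -1.73 with the deposited log2 values. With signals under 1 set to 1 and no common floor it was -0.52, and with quantile normalization -0.43. With normexp background correction it was 0.25, where the median of all tested miRNAs was 0.32, so that it lay at -0.07 relative to that median.

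miR-654-5p had log2 signals of -7.32 ± 0.58 in substate 1 and -7.71 ± 0.25 in substate 2. It differed by -0.39 (SE 0.18, 95% interval -0.97 to 0.19; limma adjusted p 0.281), with -0.71 and -0.47 in experiments 1 and 2. Its values in substate 2 of experiment 2 and on both arrays of experiment 3 were at the floor. With spot means the experiments gave -0.76, -0.64 and -0.19, lower in all 3 though in experiment 3 against the floor of that alternative, and the difference was -0.53 (limma adjusted p 0.150). With normexp it was 0.28, or -0.03 relative to the median of all tested. It was -1.46 with the deposited log2 values, -0.87 with the labelled amount alone, -0.24 without experiment 1 and -0.59 without experiment 3. With signals under 1 set to 1 and no common floor it was -0.25. For both members the direction was the same with each of the other alternatives that gave a value.

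miR-1185-1-3p had log2 signals of -6.29 ± 0.81 and -5.89 ± 0.63 in substates 1 and 2. It differed by 0.39 (SE 0.21, 95% interval -0.26 to 1.04; limma adjusted p 0.307), with 0.56, -0.07 and 0.69 in the 3 experiments. It was 0.63 without experiment 2 (limma adjusted p 0.172) and 0.24 without experiment 3. When the signals were divided by the labelled amount alone, it was -0.17, where the median of all tested was -0.51, and thus 0.34 relative to that median. Its near copy miR-1185-2-3p differed by -0.12 (SE 0.30, 95% interval -1.08 to 0.83; limma adjusted p 0.817), with 0.43 and -0.80 in experiments 1 and 2. The difference was -0.40 without experiment 1, 0.21 without experiment 2 and -0.18 without experiment 3, so that its sign turned. With the labelled amount alone it was -0.56 and with the deposited log2 values -1.26. The values of miR-1185-2-3p in substate 2 of experiment 2 and on both arrays of experiment 3 were at the floor. Spot means, to which a floor was also applied, gave 0.49, -0.56 and 0.24. In substate 1 of experiment 3 the median spot of miR-1185-2-3p, at 1.89, was below that of the negative controls, at 3.24. Both copies were higher in substate 2 in experiment 1 and lower in experiment 2.

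miR-494-3p had log2 signals of -0.72 ± 0.58 in substate 1 and -0.60 ± 0.59 in substate 2. It differed by 0.12 (SE 0.29, 95% interval -0.78 to 1.03; limma adjusted p 0.808), with 0.54, -0.55 and 0.38 in the 3 experiments. Without experiment 1 the difference was -0.084, without experiment 2 it was 0.46 and without experiment 3 it was -0.0060. With the labelled amount alone it was -0.44, where the median of all tested was -0.51. The difference thus had no settled direction. The interval leaves room for a 2-fold higher value in substate 2.

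Over the 5 tested members the differences had a median of -0.12. Experiment 1 alone gave 0.43 and experiment 2 gave -0.55. In experiment 3 it was 0, a value set by the floor, where 2 of the 5 stood on both arrays. Over all 474 tested the median was -0.01. The median of the members depended on the processing: it was -1.26 with the deposited log2 values (all tested -0.12), -0.56 with the labelled amount alone (all tested -0.51), where all 5 were below 0, and 0.28 with normexp (all tested 0.32), where all 5 were above 0. Changes within an experiment also differed between members: the change of miR-134-5p minus that of miR-1185-1-3p was -0.88, -0.58 and -2.17 (mean -1.21, SD 0.84), and minus that of miR-494-3p -0.86, -0.11 and -1.85 (mean -0.94, SD 0.88). The change of miR-494-3p minus that of miR-1185-1-3p was -0.02, -0.48 and -0.31 (mean -0.27, SD 0.23). For miR-134-5p the values of experiment 3 rest on the floor. With spot means its change was -0.82 relative to miR-1185-1-3p (mean -0.76, SD 0.17) and -0.69 relative to miR-494-3p (mean -0.56, SD 0.41) in that experiment. The pairs were chosen after their values were seen and have no test.

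**Figure D4:**
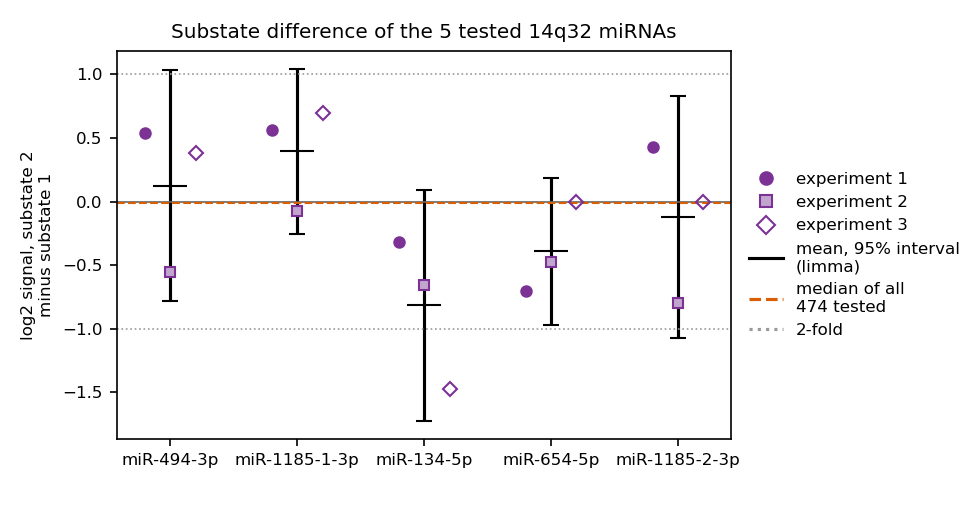
Difference in log2 signal, substate 2 minus substate 1, of the 5 tested members: symbols are the 3 experiments, bars are the mean with its 95% interval from limma, the dashed line is the median of all 474 tested miRNAs (-0.01) and dotted lines mark 2-fold. Every interval includes 0, and miR-134-5p has all 3 experiments below 0 (-0.32, -0.66 and -1.47), with the value of experiment 3 resting on the floor. With normexp it was 0.25, below the median of 0.32 over all tested miRNAs.

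Among neighbouring miRNAs outside the naming rule, miR-2392 had a total signal of 55.1, 27.0 and 15.2 in substate 1 and of 17.9, 21.6 and 9.71 in substate 2. On the scaled log2 values it differed by -0.30 (SE 0.22, 95% interval -0.98 to 0.38; limma adjusted p 0.411), with -0.80, 0.01 and -0.12 in the 3 experiments. In C19MC the median of 20 tested miRNAs was -1.09, with 11 of them at least 2-fold lower in substate 2 (4.64% of all tested were) and 0 called. In miR-302/miR-367 the median of 8 was -0.33. The detected C19MC miRNAs per array were 27, 26 and 18 in substate 1 and 18, 15 and 2 in substate 2. Most values of the tested C19MC miRNAs in substate 2 of experiment 3 were therefore at the floor. Whether the 14q32 members differed from these clusters in their change was not tested.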

How the data were processed

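The signal intensity per spot, probe and miRNA was deposited as written by Agilent Feature Extraction, in version 12.0.3.2 for experiment 1 and 11.5.1.1 for experiments 2 and 3, per the file headers, without normalization between arrays. The same files hold other marks, deposited as 0 or 1, of detection, of spots above background and of saturation. A table of processed log2 values from the authors was used as an alternative. The methods state a GeneSpring scaling to the 99th percentile, with signals under 1 set to 1. They also state that exosome signals were corrected to an equivalent of 1 ng. The genome build of the array design was not given in the sources used here.

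Each total signal was divided here by the 99th percentile over the human miRNAs of its array. On every array the smallest scaled signal with a detection mark was found, the highest of these 6 served as common floor, and log2 was taken. The 474 of 2549 human miRNAs detected on at least 3 of 6 arrays were tested with limma 3.58.1 (R 4.3.3; lmFit, eBayes, two-sided), blocking on experiment, and p-values were adjusted after Benjamini-Hochberg over all 474. Counts and figures used Python 3.11.15, pandas 2.3.3 and numpy 2.4.6. The block follows the experiment numbers in the labels and the paired test in the methods; arrays of one number had deviations from the group means that correlated at 0.674, 0.0307 and 0.517. All members detected on at least 3 arrays were named in full, those on 1 or 2 arrays by their values, and silent ones by count or name. Members and lists were chosen with earlier results of these data known, so that no test was run over them. The sequences of 2248 human miRNAs were matched by name to RefSeq (GRCh38.p14). The alternatives were the floor, the scaling, the signal column, normexp with an offset of 50 (on median spot intensities), the filter, the block, the test, the mark of detection and each experiment left out. The number of arrays, 3 per substate, limits the precision.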

Additional observations from a re-analysis of the deposited data

How the results depend on the processing

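In all 14 alternatives run for the test, 0 members were called. Of all tested, 7 were called among miRNAs detected on all 6 arrays, 3 with normexp, 1 without the block and 0 in the others. For the members, without the replicate block (experiment not in the model) the count was also 0, with limma adjusted p-values from 0.380 to 0.956. The pairing by experiment thus changed no call of a member. The count of members 2-fold apart, 0, became 1 with the labelled amount alone (miR-134-5p, -1.35, limma adjusted p 0.0752), where those lower among all 474 went from 22 to 97, 3 with the deposited log2 values, and 0 to 1 as each experiment was left out, the 1 being miR-134-5p at -1.06 without experiment 1 (all tested: 23 lower, 43 higher). The median difference of the tested members was -1.26 with the deposited log2 values and ranged from -0.24 to 0.21 as each experiment was left out. The value of -1.26 is that of miR-1185-2-3p, which was detected on 3 of 6 arrays. Members detected on at least 1 array were 13 of 87 (beside 35.2% of all human miRNAs) when at least 10 of 20 spots had to be positive and significant, and 5 to 6 as each experiment was left out. The difference in detected members per array was 0 when at least 10 of 20 spots had to be well above background, and -1.5 to -0.5 as each experiment was left out. The labelled amount alone moved the median of all tested to -0.51, with miR-1185-1-3p at -0.17 and miR-494-3p at -0.44; relative to that median they kept their signs (0.34 and 0.07). Normexp moved it to 0.32, with miR-1185-2-3p at 0.35, miR-134-5p at 0.25 and miR-654-5p at 0.28; relative to it miR-134-5p (-0.07) and miR-654-5p (-0.03) kept their signs, and miR-1185-2-3p (0.03) and miR-494-3p (-0.18) did not. With normexp 4 of the 5 members had a limma adjusted p under 0.05, as did 307 of all 474, but none of the 5 was 2-fold apart (2 lower and 1 higher of all tested). For miR-1185-2-3p the sign turned with spot means (0.058) and among the left-out experiments (-0.40 to 0.21), and so it did for miR-494-3p (-0.084 to 0.46). The cause of these turns was not tested. The other 56 values of single members and 46 of the counts and medians kept their direction or stayed within the spread between experiments. With quantile normalization miR-1185-2-3p and miR-654-5p were at the floor on all arrays and gave no value. Signal over background limits all members but miR-494-3p in experiment 3, and leaving out an experiment leaves 2 arrays per substate.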
